A study of Mus musculus with 2 samples.

Results

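The genes described here are 53 genes of gastric, intestinal and other columnar epithelium, here read in squamous cell organoids of the mouse forestomach. They were taken as a fixed list of lineage transcription factors, mucins, trefoil factors, gland products and brush border genes, without keratins or CLCA genes. Of the 53, 52 had a probe set annotated with that symbol alone, out of 29456 such genes on the array, and the probe set with the highest mean signal stood for each gene. The remaining member was Lgals4, which shares its probe set with Lgals6. There was 1 Affymetrix Mouse Gene 2.0 ST array for each of 2 cultures. The SOX2 KO culture came from Krt5CreER/+; Sox2∆/∆; ROSA26tdTomato/+ animals, and the WT control culture from animals labelled wild-type. The study gave tamoxifen to its mice to activate Cre recombinase, which the Krt5 promoter drives in basal squamous cells, and tdTomato marks the recombined cells. Its control mice are described as littermates without the Krt5CreER allele. The labels do not give the Sox2 and ROSA26 alleles of the control, the age of the animals or the number of mice behind a culture. Both cultures grew in Matrigel with a keratinocyte medium that favors squamous cells.

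Columnar epithelium lines the glandular stomach and intestine as a single layer of polarized secretory or absorptive cells. Its identity is set by transcription factors of the GATA, FOXA and HNF4 families, to which CDX factors add the intestinal program. Stratified squamous epithelium, which lines the esophagus and the rodent forestomach, relies on SOX2 and p63 instead. In Barrett's esophagus a columnar epithelium with gastric and intestinal features takes the place of the squamous lining. The comparison of the 2 cultures therefore addressed which columnar genes differ in squamous cells that lack Sox2. With 1 array in each group, differences were not checked against replicates and were not tested. Genotype cannot be told apart from mouse, culture or array.

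Values are log2 probe set signals, and a difference is the SOX2 KO value minus the WT control value. Probe sets differ in how well they bind, so signals of different genes were not ranked. The 95th percentile of 1089 olfactory receptor genes (3.83) stood in for background, because these receptors were taken as unexpressed in the organoids. The differences of the olfactory receptors had an SD of 0.26, which describes these arrays and contains no variation between cultures. The Sox2 signal was 5.74 in WT control and 2.53 in SOX2 KO. That is at least 3.75-fold lower, counted against the background level, and goes with the genotype labels. All 15 genes of a squamous epithelium list were above background on both arrays, among them Krt5 (8.86 and 8.71 in WT control and SOX2 KO) and Trp63 (6.44 and 6.31).

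Most columnar lineage genes gave no signal above the background level in either culture. Of the 52 measured, 37 lay at or below 3.83 on both arrays, 9 were above it in WT control and 14 in SOX2 KO. That is 17.3% and 26.9% of the members, against 32.6% of all genes on either array. Of the olfactory receptors, 50 were above it in WT control and 59 in SOX2 KO. Of the 6 members that crossed the level upward, all but Pgc differed by only 0.10 to 0.35. With the 99th percentile of the olfactory receptors (5.26) as the level, 3 members were above it in each culture. The rise from 9 to 14 therefore depends on the level chosen. The median member signal was 3.14 in WT control and 3.19 in SOX2 KO. The members' median difference was 0.02, and the median of all genes was 0.00. Of the members 29 were higher in SOX2 KO to any extent (55.8%), 22 were lower (42.3%) and 1 was equal. Among all genes 47.4% were higher and 48.5% lower.

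**Figure D1:**
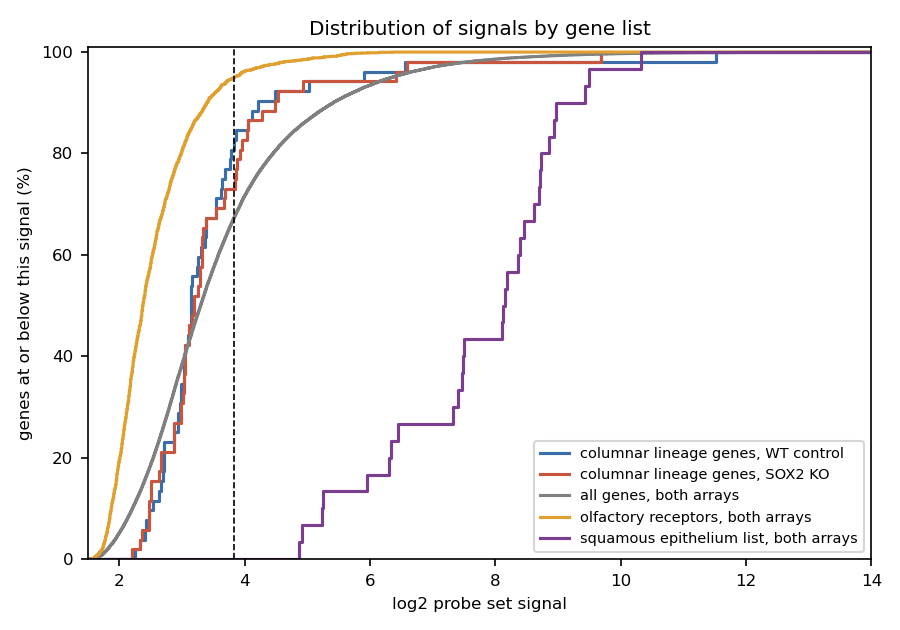
Share of genes (%) at or below each log2 probe set signal, for the 52 columnar lineage genes on each array, all 29456 genes, the olfactory receptors and the squamous epithelium list, with the background level of 3.83 dashed. The curves of the columnar lineage genes for WT control and SOX2 KO run close together, and all values of the squamous list lie above background.

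Ceacam1 and Pgc were the members whose probe set signals differed by 2-fold or more, in opposite directions. Ceacam1, which encodes a cell adhesion molecule of the carcinoembryonic antigen family, had a signal of 11.52 in WT control and 9.68 in SOX2 KO, or 3.58-fold lower. Pgc, which encodes the gastric zymogen progastricsin, had 3.39 in WT control and 4.53 in SOX2 KO. The signals differ by 1.14, but the WT control value was below background, so the signal was at least 1.62-fold higher, counted against that level. Of the 1089 olfactory receptors 7 were at least 2-fold higher in SOX2 KO and 0 at least 2-fold lower. Their largest difference was 1.86. The Pgc value in SOX2 KO was also below their 99th percentile (5.26), so it does not by itself show expression. The 1 of 52 members at least 2-fold higher compares with 1.12% of all genes, and the 1 at least 2-fold lower with 0.435%. A count of 1 is the smallest that could exceed either share. Among genes above background on at least 1 array the shares of all genes were 2.81% and 1.13%, and among those with a mean signal above background 2.54% and 1.13%. Pgc passed both floors only through its SOX2 KO value, so its place in those sets follows from its difference. Of the 37 members at or below background on both arrays 0 passed 2-fold, against 0.164% of such genes higher and 0.0424% lower. The next differences in size were those of Muc1 (0.63) and Cftr (-0.58). A difference of at least 0.25 in either direction was found in 23.1% of the members, 34.4% of all genes and 29.0% of the olfactory receptors. Here a smaller number of cells that express a gene and less of its RNA in each cell cannot be told apart.

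**Figure D2:**
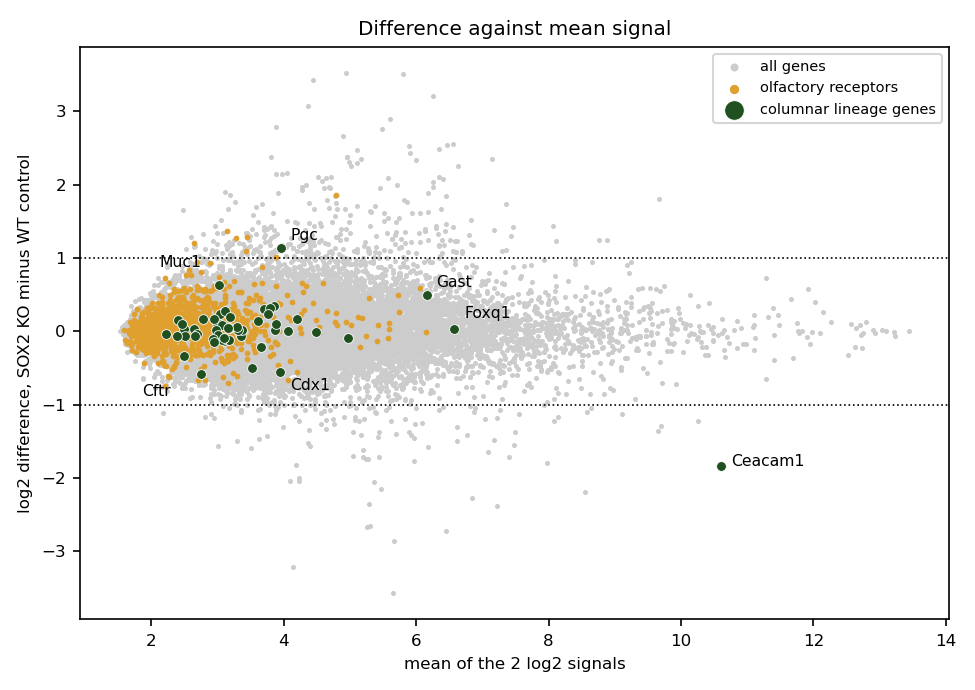
Log2 difference (SOX2 KO minus WT control) against the mean of both log2 signals for all genes, the olfactory receptors and the 52 columnar lineage genes, with dotted lines at 2-fold. Ceacam1 (-1.84) and Pgc (1.14) are the members outside the dotted lines, and most of the others lie among the olfactory receptors.

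The promoters of Ceacam1 and Pgc are shown because these members passed 2-fold, and that of Gast because it is the gastric gland hormone gene with signal above background on both arrays. Each runs from 250 bases before to 50 bases after the RefSeq start (GRCm38.p6), written 5′ to 3′ on the strand of the gene. Capitals mark the words ACAAAG and ACAATG on either strand, which are core sequences that SOX proteins can bind.
Ceacam1 promoter (chr7:25477576-25477875, minus strand): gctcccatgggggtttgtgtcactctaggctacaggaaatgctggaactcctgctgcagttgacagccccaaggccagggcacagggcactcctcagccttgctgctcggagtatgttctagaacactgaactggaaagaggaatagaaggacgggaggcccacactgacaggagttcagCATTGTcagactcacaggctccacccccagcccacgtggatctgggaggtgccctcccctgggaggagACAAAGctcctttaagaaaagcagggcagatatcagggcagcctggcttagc
Pgc promoter (chr17:47726592-47726891, plus strand): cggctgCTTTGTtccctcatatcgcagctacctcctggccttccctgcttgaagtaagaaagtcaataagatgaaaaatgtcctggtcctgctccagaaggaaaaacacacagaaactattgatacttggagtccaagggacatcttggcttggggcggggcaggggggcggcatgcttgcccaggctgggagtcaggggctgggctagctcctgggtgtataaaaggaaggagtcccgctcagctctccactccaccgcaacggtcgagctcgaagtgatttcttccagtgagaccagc
Gast promoter (chr11:100334157-100334456, plus strand): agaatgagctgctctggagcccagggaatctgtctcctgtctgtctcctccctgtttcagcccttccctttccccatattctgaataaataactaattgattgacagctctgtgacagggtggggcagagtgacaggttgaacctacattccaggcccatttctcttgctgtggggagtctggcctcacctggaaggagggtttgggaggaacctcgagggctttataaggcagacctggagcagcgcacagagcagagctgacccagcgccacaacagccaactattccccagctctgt
The Ceacam1 window held 2 such words, beginning 70 and 2 bases upstream of the start, the Pgc window held 1, beginning 244 bases upstream, and the Gast window 0. Of 32841 RefSeq promoter windows of this length, 28.6% held at least 1 word and 5.59% at least 2. Of the 53 members 40 had a window in the table, and 13 of these (32.5%) held at least 1, counting a gene with several windows if any of them did. The word TATAAA, the core of the TATA box, was found on either strand in 13.6% of all windows and in 13 of the 40 members. It began 31 bases upstream of the start in Pgc, and 28 bases upstream on the opposite strand in Gast, where it reads TTTATA. These matches describe the sequence only, and binding of SOX2 was not analysed here.

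Of the 9 endoderm transcription factors, 4 were above background on both arrays, and these were level between the cultures. Foxq1, a forkhead factor of gastric surface cells, was 6.56 in WT control and 6.59 in SOX2 KO. Foxa1, a pioneer factor of endoderm, was 5.02 and 4.93. Gata4, which marks the glandular stomach against the forestomach, was 4.49 and 4.48. Hnf4a, a factor of gastric and intestinal epithelium, was 4.06 in both. Each of these 4 differed by less than the SD of the olfactory receptors. Foxq1 alone was above their 99th percentile (5.26). The signals of Foxa1, Gata4 and Hnf4a therefore do not by themselves show expression. The partners of these factors lay below background on both arrays, and for Gata6 (2.64 and 2.67), Gata5, Foxa2, Foxa3 and Hnf4g the signals ran from 2.64 to 3.78 in WT control and from 2.67 to 3.32 in SOX2 KO. Foxa3 had the largest difference among them, 3.78 in WT control and 3.28 in SOX2 KO. An antisense transcript of Hnf4a, Hnf4aos, overlaps the gene and was 3.82 and 3.38. A long noncoding transcript on the other strand of Foxq1, A530084C06Rik, was 4.14 and 4.30. Whether these signals mix with those of Hnf4a and Foxq1 was not tested.

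Of the 6 factors of intestinal and secretory fate 3 were higher in SOX2 KO, by at most 0.04, and 3 were lower. Cdx2, which specifies intestinal epithelium, was below background in both, at 3.16 in WT control and 3.03 in SOX2 KO. Cdx1, its paralog, was 4.22 and 3.67, crossing the background level in the other direction, at least 1.31-fold lower. Pdx1, a factor of antrum, duodenum and pancreas that lies beside Cdx2 on chromosome 5, was 3.76 and 3.55. Spdef, which acts in goblet and mucous cells, sat at background level with 3.86 and 3.87. Atoh1, the factor that commits secretory cells, was 3.36 and 3.38, and Isx, an intestinal homeobox factor, 3.15 and 3.19. Over the 15 transcription factors the median difference was -0.01, with 6 higher, 8 lower and 1 equal, and 0 passed 2-fold. Past 2-fold were 1.12% of all genes higher and 0.435% lower, so 0 of 15 is not a result about these factors.

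Each of the 8 mucin genes on the list was higher in SOX2 KO, by 0.11 to 0.63. Of them 0 passed 2-fold, beside 1.12% of all genes higher and 0.435% lower. Among all genes 47.4% were higher to any extent, and among the olfactory receptors 57.1%. The 3 rescalings moved the median of all genes by at most 0.01 and left all 8 mucins higher. They reuse the same 2 arrays, so they add no support for this direction. Of the membrane mucins, which coat the apical cell surface, Muc4 was the only one above background in both cultures, at 4.12 in WT control and 4.28 in SOX2 KO. Muc1 was 2.71 and 3.34, below background on both arrays. Muc20 was 3.55 and 3.85, and Muc13 2.71 and 2.87. Muc20 lies on the opposite strand to Muc4 on chromosome 16, and their probe sets overlap at their ends.

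The gel-forming mucins Muc6, Muc2, Muc5ac and Muc5b lie in a block of 239 kb on chromosome 7 (141633972 to 141873085, mm10). Muc5ac, the mucin of gastric surface cells, was 3.63 in WT control and 3.95 in SOX2 KO. Muc2, the goblet cell mucin, was 3.68 and 4.03. Both crossed the background level, and against it they were at least 1.09-fold and 1.15-fold higher. A second Muc2 probe set, from another stretch of the gene, gave 3.77 and 3.85, a difference of 0.08 in place of 0.35. Muc5b was 3.54 and 3.68, and Muc6, the mucin of neck and antral gland cells, 2.94 and 3.05. The median difference of the 8 mucins was 0.23, beside 0.00 for all genes and 0.04 for the olfactory receptors, and 4 of the 8 differed by less than the SD of the receptors.

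**Figure D3:**
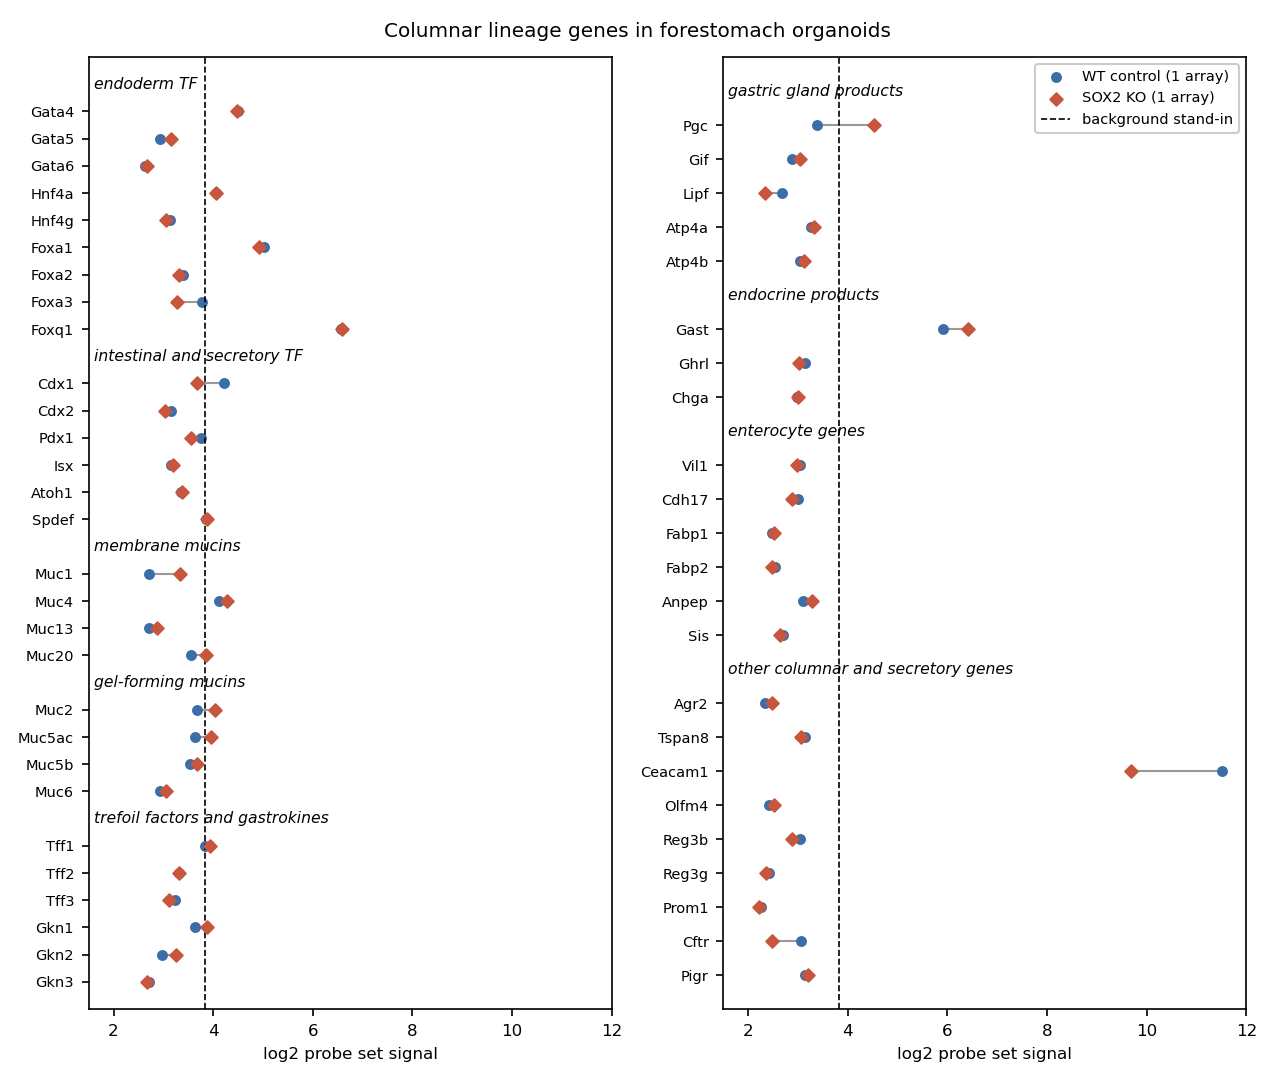
Log2 probe set signal of each of the 52 measured columnar lineage genes in WT control (circles) and SOX2 KO (diamonds), by role, with the background level of 3.83 dashed. Outside Ceacam1, Gast, Foxq1, Foxa1, Gata4, Hnf4a, Muc4 and Spdef, no member lies above the line in both cultures.

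Trefoil factors and gastrokines, small proteins that gastric and intestinal mucous cells secrete with their mucins, stayed near background. Tff1, the trefoil factor of gastric surface cells, was 3.83 in WT control and 3.93 in SOX2 KO. Gkn1, a product of the same cells, was 3.64 and 3.88. These were the members of this group that crossed the background level, and the other 4 did not reach it on either array. Tff2 was 3.31 and 3.32, and Tff3, the trefoil factor of goblet cells, 3.24 and 3.12. Gkn2 was 2.98 and 3.26, and Gkn3 2.71 and 2.67. The 3 trefoil genes lie within 39.7 kb on chromosome 17 and the 3 gastrokine genes within 43.3 kb on chromosome 6, and in neither block did all neighbors share a sign. A transcript on the strand opposite to Tff1 (LOC102631757; Gm15318) was 4.04 and 4.26, and its part in the Tff1 signal was not tested.

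Of the 5 products of gastric glands, Pgc alone had signal above background. The Pgc probe set covers the annotated gene (chromosome 17, from 47726842 to 47734483, plus strand, mm10). The other 4 lay below background on both arrays. Gif, which encodes gastric intrinsic factor, was 2.87 in WT control and 3.03 in the SOX2 KO culture, and Lipf, which encodes gastric lipase, was 2.67 and 2.33. The subunits of the acid pump of parietal cells were level, with Atp4a at 3.26 and 3.32 and Atp4b at 3.03 and 3.12. Bhlha15, a factor of mature zymogenic cells from the list of other columnar factors, was 3.86 and 3.74.

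Of the endocrine products, Gast, which encodes the hormone gastrin of antral G cells, was 5.91 in WT control and 6.41 in SOX2 KO. The difference of 0.50 is 1.41-fold, and 9.81% of all genes differed by that much or more in either direction. The single highest olfactory receptor value was 6.15 in WT control, above Gast, and 6.35 in SOX2 KO, just below Gast. A Gast signal this close to theirs does not by itself show expression. Chga, which encodes the granule protein chromogranin A of endocrine cells, was 2.97 and 2.99. Ghrl, the ghrelin gene, was 3.13 and 3.01. Both lay below background in each culture.

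Enterocyte genes gave no signal above background in either culture. Villin (Vil1), a brush border actin bundler, was 3.03 in WT control and 2.98 in SOX2 KO. The cadherin Cdh17 was 2.99 and 2.88. The 6 measured genes of this group, with the fatty acid binding proteins Fabp1 and Fabp2, the aminopeptidase Anpep and sucrase-isomaltase (Sis), ran from 2.48 to 3.10 in WT control and from 2.48 to 3.29 in SOX2 KO. Their differences lay between -0.11 and 0.19, each within the olfactory receptor SD. At these signals a lower level could not have been seen.

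Among the remaining columnar and secretory genes Ceacam1 stood alone above background. The Ceacam1 probe set covers nearly the whole annotated gene (chromosome 7, from 25461702 to 25477625, minus strand, mm10). An antisense transcript, 4732471J01Rik, overlaps it and was 3.37 in WT control and 3.21 in SOX2 KO. Ceacam1 is also made by other epithelia, leukocytes and endothelium. Of the 15 squamous genes 6 were higher in SOX2 KO and 9 lower, with a median difference of -0.13 and a range from -1.36 (Krt13) to 1.23 (Krt15). Of the 8 measured leukocyte genes, Cd68 was above background on both arrays (7.18 and 7.39) and Lyz2 in SOX2 KO (2.80 and 4.54), while the defining marker Ptprc was below it on both (2.75 and 3.08). Of the 6 endothelial genes, Kdr was above background in WT control (3.88 and 3.65), and the other 5 on neither array. The part of these cell types in the Ceacam1 difference was not tested.

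The other 8 genes of that group lay below background on both arrays. Cftr, the chloride channel of secretory epithelium, was 3.05 in WT control and 2.47 in SOX2 KO. Olfm4, a marker of intestinal stem cells in humans, was 2.41 and 2.51. Agr2, an endoplasmic reticulum protein of mucous cells, was 2.33 and 2.48, and Pigr, the receptor that carries secreted immunoglobulin, 3.14 and 3.19. The antimicrobial lectins Reg3b and Reg3g differed by -0.15 and -0.06, the tetraspanin Tspan8 by -0.09 and Prom1 by -0.04. Apart from Cftr, each of these 8 differed by less than the olfactory receptor SD.

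A second set of 83 genes in 5 lists of columnar epithelium, none of them among the 53, was read in the same way. Whether each of these genes is confined to columnar cells was not tested. Signal above background therefore does not show a columnar program. Of 81 measured, 25 were above background in WT control (30.9%) and 23 in SOX2 KO (28.4%), beside 32.6% of all genes. Of the 81, 31 were higher to any extent (38.3%) and 41 lower (50.6%), beside 47.4% and 48.5% of all genes. The median difference was -0.01. Krt19, a keratin of simple and ductal epithelium, was 2.99 in WT control and 4.41 in SOX2 KO, at least 1.49-fold higher. Of the same list, Krt7 (6.96 in both), Krt8 (5.14 and 5.17) and Krt18 (4.89 and 5.39) had signal above background in both cultures. Krt19 and Krt8 on both arrays and Krt18 in WT control lay below the olfactory receptor 99th percentile (5.26). Those values do not by themselves show expression. Among other gastric genes Car2, which encodes carbonic anhydrase 2, was 6.40 and 5.0, or 2.64-fold lower, and Psca was 12.85 and 12.62. Of the 20 measured further columnar factors 0 passed 2-fold, with Klf5 at 8.06 and 7.96, Ehf at 7.18 and 7.32 and Sox9 at 5.59 and 5.32. Of the 29 measured intestinal genes 0 passed 2-fold, with Slc5a1 (3.63 and 2.95) and Apob (2.81 and 3.47) the furthest apart, both below background. The shares of all genes past 2-fold were 1.12% higher and 0.435% lower. A count of 0 in lists of 20 and 29 genes is therefore not a result about these genes. Among tuft and enteroendocrine genes Pyy was 3.37 and 4.10 and Gip 4.82 and 4.65.

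**Figure D4:**
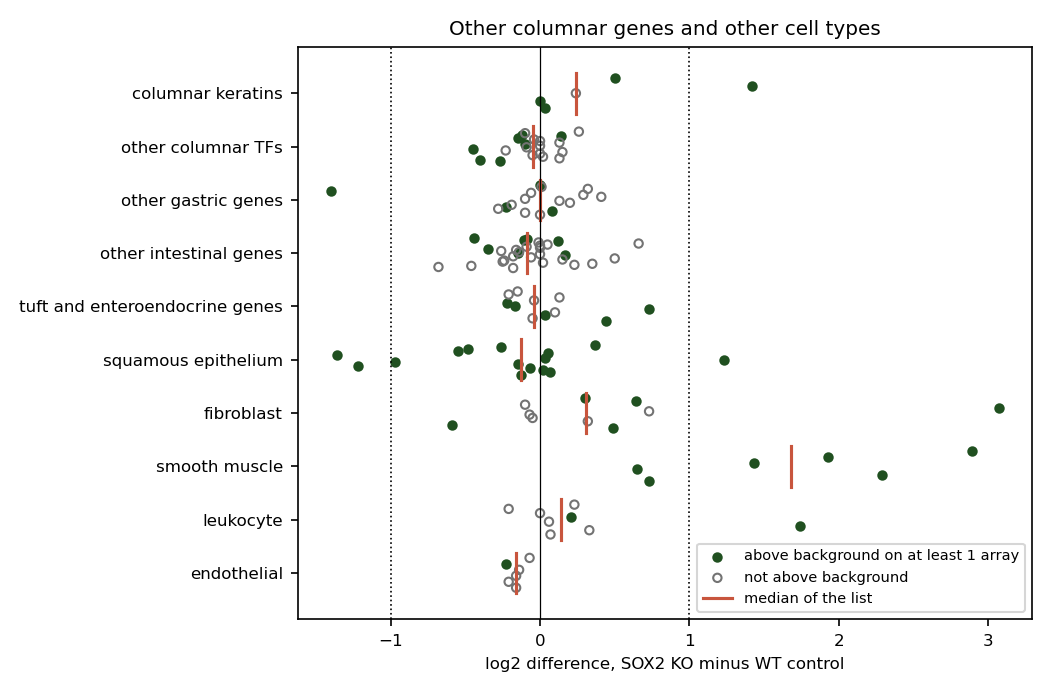
Log2 difference (SOX2 KO minus WT control) of each gene in 5 other columnar lists and in lists of squamous, fibroblast, smooth muscle, leukocyte and endothelial genes, with filled points above background on at least 1 array, the median of each list as a bar and dotted lines at 2-fold. The smooth muscle genes all lie to the right of 0, while most columnar genes lie around it.

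Smooth muscle markers were higher in the SOX2 KO culture, and markers of other cell types varied. All 6 smooth muscle genes were higher in SOX2 KO, by 0.65 to 2.89, and their summed linear signal was 79.5 in WT control and 315 in SOX2 KO. Of the 6, 3 were above background in WT control and 6 in SOX2 KO. The sums given here include signals at or below background, so their ratios are not folds of expression. Of 10 fibroblast genes 6 were higher and 4 lower, with summed signals of 105 and 173. Dcn (2.83 and 5.90) made up most of that rise. Of the 10 fibroblast genes, 2 were above background in WT control and 4 in SOX2 KO. The fibroblast genes that were lower were Thy1 (-0.59), Col3a1 (-0.10), Lum (-0.07) and Pdgfra (-0.05). Of the 8 measured leukocyte genes 6 were higher, with sums of 198 and 239, most of which came from Cd68 (7.18 and 7.39). Lyz2 was 2.80 and 4.54, and 6 of the 8 differed by less than the olfactory receptor SD. The 6 endothelial genes were each lower, by 0.07 to 0.23, all within the olfactory receptor SD. None was above background in SOX2 KO. The part of these cells in the differences of Pgc, Krt19 and the 8 listed mucins was not tested.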

How the data were processed

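RNA of 1 WT control and 1 SOX2 KO forestomach organoid culture was labelled with the WT Plus assay and hybridized to 1 array each. Normalization was done by the authors with the Transcriptome Analysis Console, and the deposited values are log2 signals of probe sets with 2 decimals. Neither its version nor its summarization is given in the sources used here, and per the file headers the annotation is mm10. The deposited fold change, p-value and FDR columns, which hold the authors' own comparison, were not used. The series value table held the same values (0 differed).

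Of 34472 probe sets, 29971 had 1 gene symbol. These gave 29456 genes, and the brightest probe set by mean represented each. Member counts used no floor on signal. Where the dimmer culture lay at or below 3.83, the fold was taken against 3.83 and written "at least". The number of arrays limits the precision. The alternatives were 3 scalings (centring on the median, quantile, loess with span 0.3), other probe sets, floors, thresholds and background levels.

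The members and lists were chosen with earlier results of these data known. Members were named with both values if either array was above background or the difference reached 0.5, and others by role, some after their values were seen. The promoter words and the genes under other observations were chosen after the values were seen. Of the 53 symbols 52 occur in the RefSeq gene table and Gif is listed there as Cblif. Python 3.11.15, pandas 2.3.3, numpy 2.4.6, statsmodels 0.14.6 and matplotlib 3.10.9 were used.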

Additional observations from a re-analysis of the deposited data

How the results depend on the processing

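No paired analysis was possible because there was a single culture of each genotype, and no library could be left out for that reason. The Sox2 difference ran from -3.25 to -3.20 over the alternatives. The counts of members at least 2-fold higher (1) and lower (1) were the same under the 3 scalings, the other probe set choices and the floors, which Pgc passed only through SOX2 KO. At 1.5-fold 2 members were higher and 1 lower, and at 3-fold 0 were higher and 1 lower. The member added at 1.5-fold was Muc1, which lay below background on both arrays. Shares of all genes were not counted at these thresholds, so these counts are not a result about the members. A difference of at least 0.5 in either direction was found in 13.5% of the members and 9.81% of all genes. Among members above background on at least 1 array the median difference was 0.10, over fewer genes that include those raised past the level in 1 culture. With the 99th percentile of the olfactory receptors (5.26) as background, 3 members were above it in WT control and 3 in SOX2 KO (Foxq1, Gast and Ceacam1 in each). With the median of all genes (3.30) these counts were 21 and 22. Muc2 differed by 0.08 with its dimmer probe set. Signals at or below background cannot show a fall. The floor on mean signal above background was chosen after seeing the data.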

Other observations

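Some relatives of the members were looked at after the members' values were seen. Of 14 other genes of the carcinoembryonic antigen family on the array, 0 differed by 2-fold, and their differences ran from -0.43 to 0.25. The shares of all genes past 2-fold were 1.12% higher and 0.435% lower, so 0 of 14 is not a result about this family. Of the 14, 2 were above background on either array, and the others could not have shown a fall. These were Ceacam2, the close paralog of Ceacam1, at 4.70 in WT control and 4.77 in the SOX2 KO culture, and Ceacam11 at 4.44 and 4.03. Whether probes of Ceacam2 and Ceacam11 bind Ceacam1 RNA was not tested.

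Mucin genes outside the list did not share one direction. Muc15, a membrane mucin, was 5.11 in WT control and 4.49 in the SOX2 KO culture, and Muc3 was 3.92 and 3.60. Muc3a (3.35 and 3.54), Muc16 (2.16 and 2.36) and Muc19 (3.61 and 3.79) were higher by 0.18 to 0.20 with signals below background. Of these 5 mucins Muc15 alone was above background in both cultures.

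Other aspartic proteases related to Pgc did not differ in its direction by more than the olfactory receptor SD. Pga5, a gastric pepsinogen gene, was 3.03 in WT control and 3.11 in SOX2 KO, Cym, the chymosin gene, was 4.38 and 4.07, and Ctsd, the lysosomal cathepsin D gene, was 8.20 and 8.16. The probe set shared by Lgals4, a galectin of intestinal epithelium, and Lgals6 was 2.97 and 2.82.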
